A study of Drosophila melanogaster with 35 samples.

Results

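Heads of 1-week-old flies that made human TREM2R47H with human TYROBP in glia were compared with heads of flies that made wild-type TREM2 (TREM2WT) with the same TYROBP. Both groups had 3 RNA-seq libraries, so the comparison used 6 of the 35 libraries of the series and all 14279 genes of the deposited table. Flies of all groups carried 1 copy of Repo-LexA and 1 of GMR-gal4. The TREM2R47H flies (R47H libraries) had the chromosome LexAop2-TREM2-R47H,TYROBP opposite GMR-gal4, the TREM2WT flies (Trem2wt libraries) had LexAop2-TREM2-WT,TYROBP in its place, and the 3 control libraries came from flies with neither human gene. Flies were kept at 25°C and the label gives adult heads as the tissue. The GMR-gal4 driver, active in the developing and adult eye, was present in all 3 groups but had no UAS target in any of them. Per the study's methods, the cDNAs were placed behind LexA operators and integrated with PhiC31 integrase, and large pools of flies per genotype were collected. Whether the 3 libraries of a genotype came from separate collections is not stated, so the p-values may measure technical spread only.

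TREM2 is a receptor of the immunoglobulin superfamily on mammalian microglia that binds lipids and lipoproteins, and TYROBP (DAP12) is the adaptor through which it signals. The R47H substitution in its ligand-binding domain reduces ligand binding and is a risk variant for late-onset Alzheimer's disease. Flies have no known TREM2, and Repo-LexA, made from the glial homeobox gene repo, drives the human proteins in nearly all fly glia, which include the cells that engulf neuronal debris. By design the 2 groups share the driver and the TYROBP transgene and differ in the receptor form. The labels also give them different strains. The study's western blots of heads with Repo-LexA, probed for TREM2 or TYROBP, gave no significant difference in TREM2 protein between the receptor forms. TYROBP levels were not compared here. The human transgenes themselves are not in the table and were not analysed here. In heads, which mix brain, eye, fat body, antennae and cuticle, fewer cells of a type and less RNA per cell cannot be told apart.

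RNA integrity differed between the 2 groups. The RNA integrity number (RIN) was 6.9, 5.7 and 5.6 in the R47H libraries, against 7.5, 6.5 and 7.0 in the Trem2wt libraries, and lay between 6.8 and 6.9 in the control libraries. Levels below are log2 CPM (read counts scaled to library size) at equal RIN, that is, the deposited values with the slope on RIN fitted within genotypes taken out, so that the difference of 2 group means is the log2 difference tested. Log2 CPM does not correct for gene length, so levels were compared between libraries and not between genes. Where a fit below is said to be without the RIN covariate, it used the deposited values, which had already been adjusted for RIN across genotypes. It is therefore not a fit free of RIN adjustment.

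Several marker genes described the libraries themselves. The study's methods name male flies, yet the yolk protein gene Yp1 lay between 13.2 and 14.1 at equal RIN in all 17 GMR libraries (between 7.64 and 17.7 as deposited) and between 0.74 and 5.53 in the 18 libraries with the elav driver. The male dosage compensation RNA roX1 ran the other way, between 5.43 and 5.89 in the GMR libraries and between 11.4 and 11.7 in the elav libraries. Both compared groups shared this pattern. Germline transcripts separated single libraries within a group. Oskar (osk), an oocyte RNA, was at −1.11, 3.17 and 5.44 in the R47H libraries, at 2.90, 3.72 and 3.25 in the Trem2wt libraries and between −1.33 and −1.01 in the control libraries. R47H replicate 1 was therefore at the control level of osk, unlike the other 5 libraries of the comparison, and its weight in the results was measured by leaving it out. It was also the only R47H library with a RIN (6.9) within the range of the Trem2wt libraries (6.5 to 7.5).

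**Figure D1:**
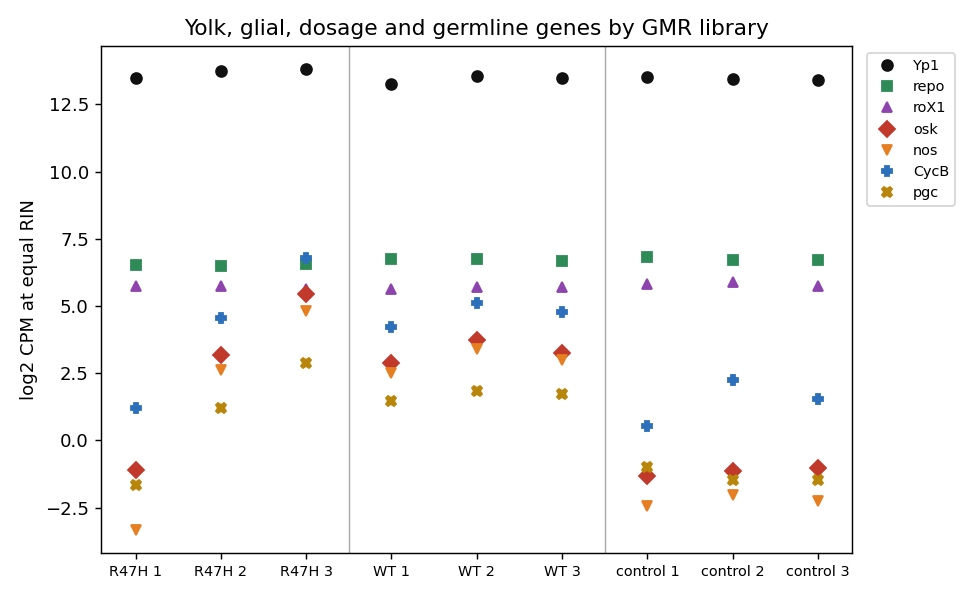
Log2 CPM at equal RIN of a yolk protein gene (Yp1), the glial gene repo, the dosage compensation RNA roX1 and 4 germline genes (osk, nos, CycB, pgc) in each R47H, WT (TREM2WT) and control library. Yp1 and roX1 are level over the 9 libraries, while osk is at −1.11 in R47H replicate 1 and at 3.17 and 5.44 in the other R47H libraries.

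Of the 14279 genes, 253 differed between TREM2R47H and TREM2WT heads at an adjusted p below 0.05 and a fold above 1.2 (limma over all 35 libraries with RIN as a covariate, Benjamini-Hochberg adjustment), or 1.77% of genes. The differentially expressed genes (DEGs) comprised 116 higher in TREM2R47H heads (0.812%) and 137 lower (0.959%). Most changes were small, with a median absolute log2 difference of 0.60, while 41 genes rose and 44 fell by over 1 on the log2 scale. The libraries of the 2 genotypes did not overlap for 252 of the 253 DEGs, against 24.8% of all genes, and Cyp304a1 was the exception. The median log2 difference over all genes was −0.0023. Control heads lay nearer the TREM2WT mean for 79 of the 116 higher genes and nearer the TREM2R47H mean for 37. Of the 137 lower genes, 74 had a control mean nearer TREM2WT and 63 nearer TREM2R47H.

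The DEGs changed with the libraries fitted. Without R47H replicate 1 there were 279 DEGs, 137 of them among the 253, and without Trem2wt replicate 2 there were 128, with 113 shared. Either omission left the RINs of the 2 genotypes without overlap. They were 5.7 and 5.6 against 6.5 to 7.5 in the first fit, and 5.6 to 6.9 against 7.0 and 7.5 in the second. The part of RIN in calls lost in these fits was not tested. A fit to the 6 libraries alone, with 3 residual degrees of freedom, called 0 genes in limma (1045 at an unadjusted p below 0.05, smallest adjusted p 0.142). All 253 DEGs kept their sign in it, but both fits take the difference from the same 6 libraries, so equal signs are no separate support. In total 73 DEGs, 31 higher and 42 lower, were called in each of the 6 fits that left out 1 of the compared libraries.

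**Figure D2:**
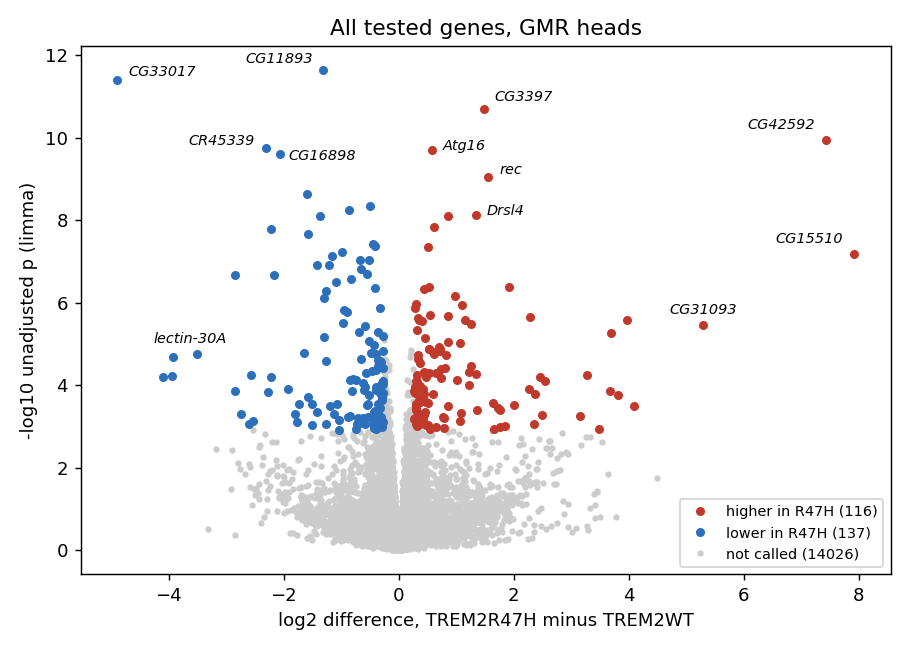
Each point is 1 of 14279 genes, with the log2 difference between TREM2R47H and TREM2WT heads on the x axis and −log10 of the unadjusted limma p on the y axis. The 116 higher DEGs are red, the 137 lower DEGs blue and the 14026 genes not called grey, and CG15510 and CG42592 lie farthest to the right at 7.91 and 7.43.

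The largest differences were in genes near the floor of detection in 1 of the 2 genotypes. In 29 DEGs the lower group averaged under −3 on the log2 CPM scale, 17 of them higher in TREM2R47H heads and 12 lower. The table holds no counts, so it is unknown whether any read was seen at such levels, and these log2 differences do not measure a fold. CG15510 (FBgn0039707, current symbol Prtl99C) was at 2.37, 2.41 and 2.15 in the R47H libraries, against −6.65, −6.08 and −4.09 in the Trem2wt libraries. Its control mean was −6.29, so this gene stood out in TREM2R47H heads alone among the 3 genotypes. The log2 difference was 7.91 (SE 1.02, adjusted p = 4.31e-05). CG42592 (FBgn0260969) had 0.96, 1.81 and 1.47 in the R47H libraries, against −5.52, −5.96 and −6.58 in the Trem2wt libraries (difference 7.43, SE 0.67, adjusted p = 3.99e-07). These 2 genes overlap on opposite strands of 3R (CG42592 from 29835610 to 29836288, CG15510 from 29835950 to 29837447, in the coordinates of the build named by the submitters, BDGP6). The strand setting of the counting is not stated, and reads from the 2 cannot be told apart.

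Atg16, their neighbour on 3R (29827281 to 29835101), encodes the partner of Atg5 and Atg12 that places the lipid conjugation step of autophagy at the growing membrane, and the file pairs it with human ATG16L1 and ATG16L2. Levels of Atg16 were 5.23, 5.33 and 5.28 in the R47H libraries, against 4.73, 4.68 and 4.69 in the Trem2wt libraries, with a control mean of 4.63. The rise was 0.58 (SE 0.05, adjusted p = 4.72e-07), or 1.49-fold, and the 3 R47H libraries lay above all others of the 9. CG15510, CG42592 and Atg16 were called in each of the 6 leave-one-out fits.

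A further run of genes near the floor lay on 3R between 25775288 and 25816574. CG31093 had −0.94, −0.27 and 0.31 in the R47H libraries and −5.81, −5.88 and −5.10 in the Trem2wt libraries (difference 5.29, SE 0.87, adjusted p = 8.28e-04). CG4960, paired in the file with human REEP5 and REEP6, which shape the endoplasmic reticulum, was at 0.08, 0.52 and 0.47 in the R47H libraries and at −3.01, −3.68 and −3.34 in the Trem2wt libraries (difference 3.70, SE 0.63). Around them the noncoding genes CR43631, CR43632, CR43633 and CR43847 rose by 3.82, 4.10, 3.97 and 3.68. The protein-coding CG17196 and CG4956, both paired with human ZDHHC24, rose by 2.498 and 3.16, and BG642167 and CG14354 by 3.48 and 2.46. Control means were −5.67 for CG31093 and −3.43 for CG4960, close to the TREM2WT means, while CG14354 had −2.70 in control heads, above its TREM2WT mean of −3.64. Only CG31093 and CG4960 of these 10 genes kept their call without R47H replicate 1, and BG642167 was called in only 1 of the 6 leave-one-out fits. CR41509, a noncoding gene on the Y chromosome, was at −1.97, −1.17 and −0.61 in the R47H libraries and at −3.87, −6.07 and −3.61 in the Trem2wt libraries, and lost its call without Trem2wt replicate 2 (adjusted p = 0.211).

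In the other direction, CG33017 (FBgn0053017) was at −3.27, −2.58 and −3.54 in the R47H libraries, against 1.90, 1.50 and 1.88 in the Trem2wt libraries. Control heads averaged −3.45, so of these 3 genotypes TREM2WT alone had CG33017 above 0 on this scale (difference −4.89, SE 0.37, adjusted p = 2.75e-08). Lectin-30A, a C-type lectin of the carbohydrate-binding family, showed the same order. It was at −2.61, −2.87 and −3.11 in the R47H libraries and at 0.44, 0.76 and 0.73 in the Trem2wt libraries, with a control mean of −4.14 (difference −3.50, SE 0.65, adjusted p = 2.93e-03). CG16898 fell as well, at 3.20, 2.75 and 2.47 in the R47H libraries, against 4.72, 4.84 and 5.08 in the Trem2wt libraries (difference −2.07, SE 0.20, adjusted p = 5.14e-07), and its control mean of 3.37 lay nearer the R47H values.

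Another set, on 3L, fell in TREM2R47H heads, and for eIF4E-4, CR45173 and CR45239 the TREM2WT heads stayed near the control. On 3L between 6642250 and 6667816, eIF4E-4, a cap-binding translation initiation factor of the eIF4E family, was at −1.28, −1.58 and −1.001 in the R47H libraries, against 0.33, 0.16 and 0.38 in the Trem2wt libraries. Its control mean was 0.67, and the difference was −1.58 (SE 0.19, adjusted p = 1.78e-05). Next to it, the noncoding CR45173 and CR45239 fell by 2.84 and 2.17 and CG32395 (Grl65a) fell by 1.65, its call lost without Trem2wt replicate 2 (adjusted p = 0.0882). The nearby control means were −0.45 for CR45173 and 0.09 for CR45239, against TREM2WT means of −0.43 and −0.09. CR45339, a noncoding gene at the start of 2L (65999 to 66242), had −1.73, −1.52 and −1.68 in the R47H libraries, 0.71, 0.64 and 0.65 in the Trem2wt libraries and a control mean of −0.70, so that the control stood between the 2 genotypes. Its neighbours CR45340 and dbr fell by 1.93 and 0.44, but these 2 overlap on 1 strand (CR45340 from 66318 to 66524, dbr from 66482 to 71390) and may share reads. Over the whole series dbr ranged from 5.51 to 5.89 with TREM2R47H, from 5.98 to 6.37 with TREM2WT and from 5.52 to 5.81 without TREM2. For dbr it was therefore TREM2WT that lay apart from the libraries without TREM2. CR45340 lost its call without R47H replicate 1, without Trem2wt replicate 2 and without the RIN covariate, while CR45339 and dbr were called in all 6 leave-one-out fits.

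**Figure D3:**
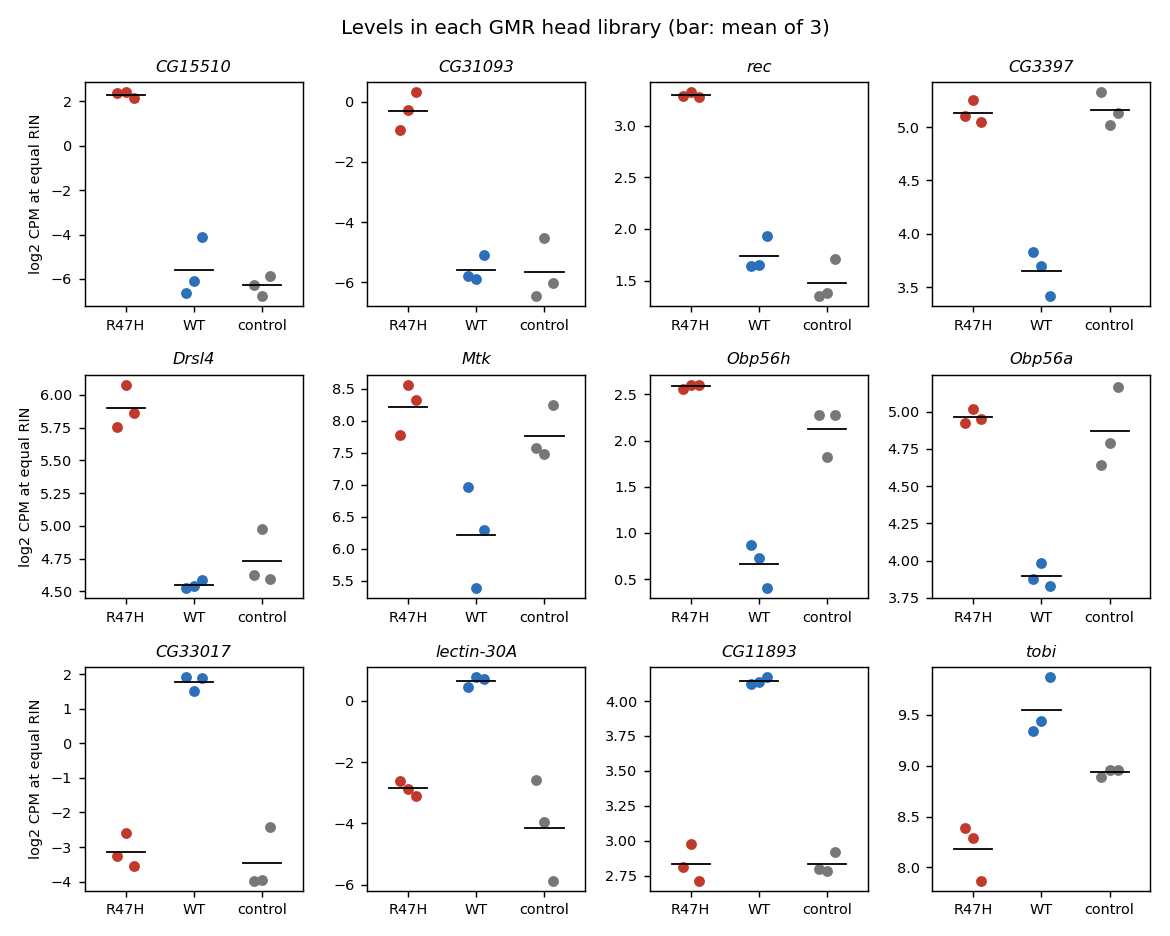
Log2 CPM at equal RIN of 12 genes in the 3 R47H, 3 WT (TREM2WT) and 3 control libraries, with a bar at the mean of 3. For CG3397, Mtk, Obp56h and Obp56a the R47H libraries sit nearer the control than the WT libraries do, and for CG15510, CG31093, rec and Drsl4 the WT libraries sit nearer the control.

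Chemosensory genes were a small group of DEGs led by odorant binding proteins, the soluble carriers that bring odorants and pheromones to receptor neurons. Of 45 measured odorant binding protein genes, 4 rose and 0 fell (0.812% and 0.959% of all genes did), with a list median of −0.07. Obp56h, a member known for its part in male mating behaviour, was at 2.56, 2.60 and 2.60 in the R47H libraries, against 0.87, 0.73 and 0.40 in the Trem2wt libraries. It was 3.78-fold higher (difference 1.92, SE 0.28, adjusted p = 1.69e-04). Obp56a, from the same gene cluster, had 4.93, 5.02 and 4.95 in the R47H libraries and 3.87, 3.98 and 3.83 in the Trem2wt libraries (difference 1.07, SE 0.19, adjusted p = 1.90e-03). In control heads the means were 2.12 for Obp56h and 4.87 for Obp56a, nearer the R47H values in both cases. The difference from control was 0.46 in TREM2R47H and −1.46 in TREM2WT heads for Obp56h, and 0.10 and −0.97 for Obp56a. These 2 comparisons share the control libraries.

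The other 2 odorant binding protein DEGs were weaker. Obp56d was at 8.82, 8.99 and 8.77 in the R47H libraries and at 8.45, 8.42 and 8.41 in the Trem2wt libraries (difference 0.43, SE 0.09, adjusted p = 0.0113). Obp83ef rose by 0.37 (adjusted p = 0.0418). Without the RIN covariate, on values already adjusted for RIN across genotypes, neither was higher in TREM2R47H heads, at −0.02 for Obp56d and −0.0004 for Obp83ef. Both lost their call without R47H replicate 1 or Trem2wt replicate 2. Obp99b (0.47, adjusted p = 0.0890) and Obp8a (−0.42, adjusted p = 0.0793) did not pass. A list of 4 genes that the study named for response to pheromone held 3 of these DEGs, but it was drawn up on these samples and is not independent evidence.

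Of 144 measured odorant, gustatory and ionotropic receptor genes, 0 rose and 1 fell, where 0.812% of all genes rose and 0.959% fell. Gr68a, a gustatory receptor of male foreleg neurons used in courtship, had 0.23, 0.42 and 0.31 in the R47H libraries and 1.35, 0.96 and 1.04 in the Trem2wt libraries (difference −0.80, SE 0.17, adjusted p = 7.88e-03). It lost its call without R47H replicate 1 (adjusted p = 0.142). Among 20 genes of the CheA and CheB families, contact chemosensation genes of gustatory hairs, CheA29a fell by 2.56 (adjusted p = 6.61e-03), near the floor in the R47H libraries at −5.99, −5.16 and −4.78, and without the RIN covariate it was not called (adjusted p = 0.382).

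Of 66 genes on 5 lists of innate immunity, 9 were called higher in TREM2R47H than in TREM2WT heads and 1 lower. Of all genes, 0.812% were called higher and 0.959% lower. The lists were chosen with earlier results of these data known. The fly fat body and surface tissues secrete antimicrobial peptides under the Toll and Imd pathways, which begin with peptidoglycan recognition proteins and end in NF-kappaB factors. Of 7 drosomycin family and metchnikowin genes, 3 rose, and the list median was 0.85. Mtk, which encodes the antifungal peptide metchnikowin, was at 7.78, 8.56 and 8.33 in the R47H libraries, against 6.96, 5.39 and 6.30 in the Trem2wt libraries (difference 2.004, SE 0.47, adjusted p = 0.0215). All 3 R47H libraries lay above all 3 Trem2wt libraries, which were spread over more than 1 log2 unit, and the control mean was 7.76.

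The drosomycin-like genes Drsl4 and Drsl5 were tighter. Drsl4 had 5.76, 6.08 and 5.86 in the R47H libraries and 4.52, 4.54 and 4.59 in the Trem2wt libraries (difference 1.35, SE 0.15, adjusted p = 8.21e-06), a 2.55-fold rise. Drsl5 had 6.67, 6.82 and 6.75 in the R47H libraries and 5.94, 5.95 and 5.78 in the Trem2wt libraries (difference 0.85, SE 0.14, adjusted p = 6.11e-04). The control means of 4.73 and 6.03 were near the TREM2WT level in both genes, unlike Mtk. Drosomycin itself (Drs) did not pass, with a difference of 0.04 (SE 0.63, adjusted p = 0.988).

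Peptides of the immune-induced molecule list, short secreted products of Toll signalling, rose in 3 of 10 cases, and all 10 were higher by sign, with a median of 0.31. IM2 had 7.70, 7.95 and 7.66 in the R47H libraries and 7.42, 7.19 and 7.27 in the Trem2wt libraries (difference 0.48, SE 0.12, adjusted p = 0.0423). IM3 rose by 0.37 (adjusted p = 9.96e-03) and CG16836 by 0.51 (adjusted p = 0.0196). IM1 (0.40, adjusted p = 0.297) did not pass. Of 12 antibacterial peptide genes of the Imd type, 0 were called (4 at an unadjusted p below 0.05, which 14.4% of all genes had), although all 12 were higher by sign and the median was 1.19. Defensin (Def) was at 1.47, 1.98 and 2.47 in the R47H libraries and at 1.16, 0.86 and 0.42 in the Trem2wt libraries, without overlap (difference 1.16, SE 0.47, adjusted p = 0.243). Diptericin (Dpt) was at 5.21, 4.94 and 5.38 in the R47H libraries and at 3.83, 1.87 and 4.74 in the Trem2wt libraries, and its difference of 1.70 had an SE of 0.86 (adjusted p = 0.373). Trem2wt replicate 2 was the lowest of the 6 libraries in both Mtk and Dpt.

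Recognition and signalling genes had smaller list medians than the peptide genes. Of 15 peptidoglycan recognition and GNBP genes, 2 rose and 1 fell (median 0.22). By sign 13 were higher and 2 lower, and 7 had an unadjusted limma p below 0.05, which 14.4% of all genes had. PGRP-SB1, an amidase that cleaves peptidoglycan, had 7.04, 7.21 and 7.23 in the R47H libraries and 6.44, 5.89 and 6.12 in the Trem2wt libraries (difference 1.01, SE 0.21, adjusted p = 8.03e-03). PGRP-SA, a circulating receptor upstream of Toll, rose by 0.52 (adjusted p = 0.0425). PGRP-SD, a secreted recognition protein, fell, with 5.14, 5.22 and 5.24 in the R47H libraries and 5.93, 5.67 and 5.69 in the Trem2wt libraries (difference −0.57, SE 0.11, adjusted p = 6.17e-03). Of 22 Toll and Imd signalling genes, Rel alone was called. By sign 15 were higher and 7 lower (median 0.07), and 9 had an unadjusted limma p below 0.05. Rel, the NF-kappaB factor of the Imd pathway, was at 7.31, 7.30 and 7.29 in the R47H libraries and at 7.00, 7.00 and 6.87 in the Trem2wt libraries (difference 0.34, SE 0.06, adjusted p = 6.47e-04). Its control mean of 7.32 matched the TREM2R47H level, and the differences from control were −0.02 in TREM2R47H and −0.37 in TREM2WT heads.

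Support was uneven within the immune group. Drsl4, Drsl5 and Rel were called in all 6 leave-one-out fits. Without Trem2wt replicate 2, Mtk (1.28, adjusted p = 0.367), IM2, IM3, CG16836, PGRP-SB1 and PGRP-SA lost their calls. Over the 6 leave-one-out fits, PGRP-SA was called in 1 and IM2 in 2. PGRP-SD lost its call without R47H replicate 1 and without the RIN covariate. The 7 genes that the study listed for defense response were all called, but that list was drawn up on these samples. Of 6 fat body markers named, 4 were matched, and of these Lsp2 alone was called, and it fell. The DEG CG3523, paired with human FASN, was not among those 4, and it fell as well. Hemocyte markers had 0 of 5 called, with 1 at an unadjusted p below 0.05 (median −0.09).

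**Figure D4:**
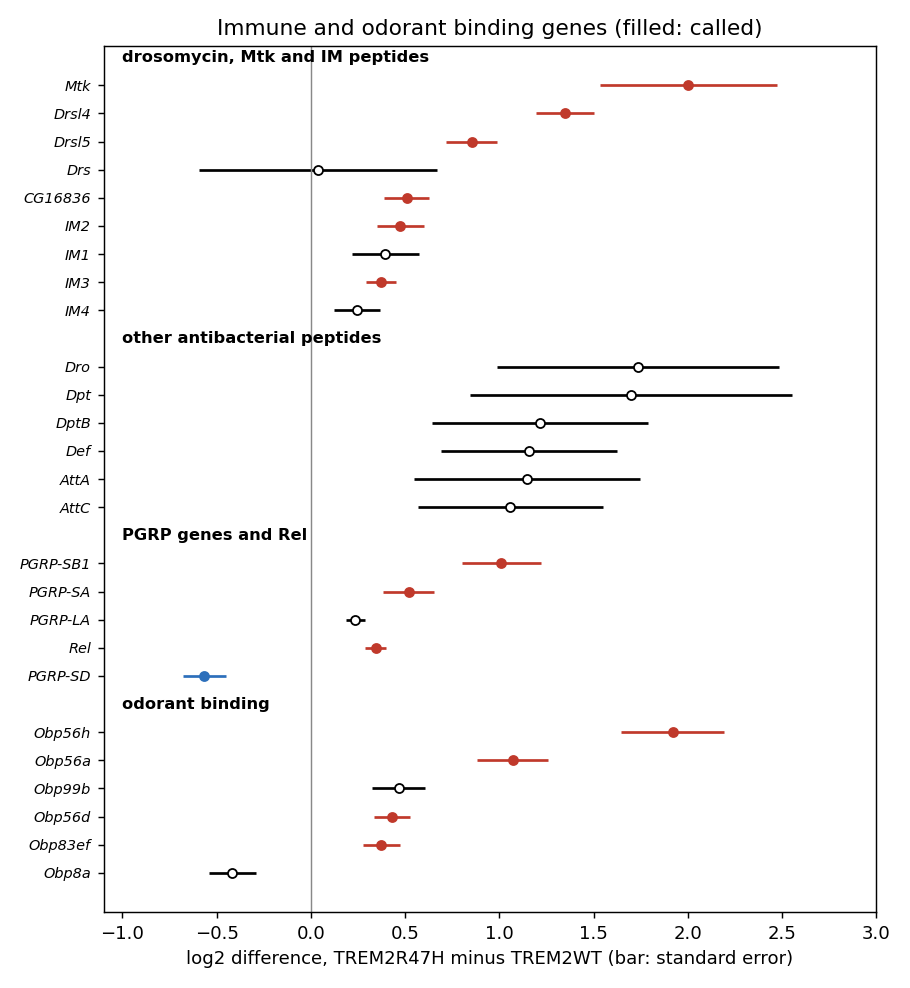
Log2 difference between TREM2R47H and TREM2WT heads of selected immune and odorant binding protein genes, with bars of 1 standard error and filled points for DEGs. The antibacterial peptide genes Dro, Dpt and Def lie to the right at 1.74, 1.70 and 1.16 with open points, and PGRP-SD at −0.57 is the only filled point left of 0.

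Stress genes gave single calls. Of 20 heat shock protein genes, 2 rose and 0 fell (median 0.04), against 0.812% and 0.959% of all genes. Hsp70Ab, an inducible Hsp70 chaperone, was at 0.24, 0.30 and 0.70 in the R47H libraries, against −1.44, −2.32 and −1.85 in the Trem2wt libraries (difference 2.28, SE 0.37, adjusted p = 6.33e-04). It has near-identical copies in the genome, and how the counting split reads between them is not stated. Hsp68 rose by 0.37 (adjusted p = 0.0189). CG7409, which the file pairs with small heat shock proteins and alpha crystallins, rose by 0.45 (adjusted p = 0.0313), and the heat-shock noncoding alphagamma-element:CR32865 by 1.77 (adjusted p = 0.0259). Ets21C, an ETS transcription factor induced by JNK signalling, was at 0.94, 1.59 and 1.65 in the R47H libraries and at 0.93, −0.03 and 0.00 in the Trem2wt libraries (difference 1.09, SE 0.27, adjusted p = 0.0289), where R47H replicate 1 and Trem2wt replicate 1 were nearly equal. Hsp68, CG7409, CR32865 and Ets21C lost their calls without Trem2wt replicate 2, and Ets21C kept its call in only 2 of the 6 leave-one-out fits. Of 6 Turandot genes, which encode secreted stress peptides, 0 were called, 1 at an unadjusted p below 0.05 (median 0.82). TotA came nearest, with 8.94, 9.16 and 9.47 in the R47H libraries and 8.10, 8.04 and 8.30 in the Trem2wt libraries (difference 1.05, SE 0.29, adjusted p = 0.0578). CG11671 (Nazo), an antiviral gene downstream of STING in flies, rose by 2.26 (adjusted p = 0.0113) and also depended on Trem2wt replicate 2 (adjusted p = 0.142 without it).

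The enzymes and the storage protein named next were also gathered from the DEGs rather than from a list of carbohydrate or lipid genes. Tobi, an alpha-glucosidase gene that responds to insulin and adipokinetic hormone, had 8.39, 8.29 and 7.87 in the R47H libraries and 9.34, 9.44 and 9.87 in the Trem2wt libraries (difference −1.37, SE 0.16, adjusted p = 8.21e-06). The control mean of 8.94 stood between, and tobi differed from control by −0.75 in TREM2R47H and by 0.61 in TREM2WT heads. Lsp2, a hexameric storage protein of the fat body, had 6.52, 6.72 and 6.09 in the R47H libraries and 7.79, 7.31 and 8.11 in the Trem2wt libraries (difference −1.29, SE 0.22, adjusted p = 1.50e-03), with a control mean of 6.47 near the TREM2R47H level.

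CG3523, paired with human FASN, the fatty acid synthase, was at 12.06, 11.78 and 11.86 in the R47H libraries and at 12.27, 12.34 and 12.27 in the Trem2wt libraries (difference −0.39, SE 0.09, adjusted p = 0.0118), and lost its call without Trem2wt replicate 2 and under quantile normalization (adjusted p = 0.241). Mino, a glycerol-3-phosphate acyltransferase, fell by 0.40 (SE 0.06, adjusted p = 1.73e-04) and Gk, a glycerol kinase, fell by 0.30. Elo68alpha, a fatty acid elongase, rose by 1.25 (SE 0.21, adjusted p = 8.28e-04), with −0.21, −0.15 and −0.61 in the R47H libraries and −1.48, −1.63 and −1.62 in the Trem2wt libraries. CG1942, paired with the DGAT2 family of acyltransferases, rose by 1.23 (adjusted p = 6.01e-03, or 0.148 without Trem2wt replicate 2). CG11453 (Acsx4), of the acyl-CoA synthetase family, rose by 1.10 (SE 0.17, adjusted p = 3.80e-04).

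Of 8 phosphatidate phosphatase genes, which turn phosphatidic acid into diacylglycerol, 3 fell and 0 rose (median −0.19). Over all genes 0.959% fell and 0.812% rose. CG11438 had 3.46, 3.38 and 3.32 in the R47H libraries and 4.15, 4.04 and 3.999 in the Trem2wt libraries (difference −0.68, SE 0.09, adjusted p = 5.37e-05). CG11437 had −0.02, −0.13 and −0.10 in the R47H libraries and 1.44, 1.00 and 1.23 in the Trem2wt libraries (difference −1.31, SE 0.20, adjusted p = 2.79e-04). Laza, which acts on phosphatidic acid in photoreceptors, fell by 0.28 (adjusted p = 0.0454) and lost its call in 4 of the 6 leave-one-out fits. These 3 genes are neighbours on 3L between 22458816 and 22469853. Of the list members just beyond that stretch, CG11426 (−0.42, adjusted p = 0.0604) and CG11425 (0.11, adjusted p = 0.819) did not pass, and neither did Lpin, wun and wun2 at other loci (−0.09, −0.01 and 0.01).

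Higher levels were found for 3 genes of purine synthesis and 1 of serine synthesis. Ade5, paired with PAICS of purine synthesis, had 9.68, 9.64 and 9.49 in the R47H libraries and 9.04, 9.12 and 9.34 in the Trem2wt libraries (difference 0.44, SE 0.09, adjusted p = 6.01e-03). CG11089, paired with ATIC, which carries out the last steps of that route, rose by 0.71 (SE 0.13, adjusted p = 2.54e-03), and CG6767, paired with the PRPP synthetases that feed it, by 0.35 (adjusted p = 3.10e-03). Aay, a phosphoserine phosphatase, rose by 0.44 (adjusted p = 1.80e-04). The 3 purine genes were singled out after their values were seen, and all 3 lost their calls without R47H replicate 1. CG7470, paired with ALDH18A1 of proline synthesis, fell by 0.32, or by 0.23 and under the fold limit with quantile normalization, and CG5144 (Argk2), an arginine kinase, rose by 1.16.

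Each detoxification list below held at most 1 gene called in each direction, where 1.77% of all genes were called. CG3397 (FBgn0037975) had 5.10, 5.26 and 5.05 in the R47H libraries and 3.83, 3.70 and 3.42 in the Trem2wt libraries, a 2.80-fold difference (1.48, SE 0.12, adjusted p = 9.27e-08). Its control mean was 5.16, so the lower level was that of TREM2WT heads. Of 17 UDP-glycosyltransferase genes 1 rose and 1 fell. Ugt86Di rose by 0.80 (adjusted p = 5.17e-03) and Ugt35b (current symbol Ugt35B1) fell by 0.56 (SE 0.08, adjusted p = 9.59e-05). Of 90 cytochrome P450 genes 1 rose and 1 fell. Cyp12a5 fell by 0.51 (adjusted p = 1.79e-03). Cyp304a1, the DEG whose libraries overlapped, had 3.07, 4.13 and 4.13 in the R47H libraries and 3.30, 1.15 and 1.58 in the Trem2wt libraries (difference 1.76, SE 0.47, adjusted p = 0.0449), and without Trem2wt replicate 2 it was at 1.01 (adjusted p = 0.540). Of 35 glutathione transferase genes 0 were called, 4 at an unadjusted p below 0.05 (median 0.08).

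Among 17 ecdysteroid kinase-like genes, a family named for an enzyme that phosphorylates ecdysteroids, 3 rose and 1 fell (0.812% and 0.959% of all genes did). CG11893 had 2.81, 2.98 and 2.71 in the R47H libraries and 4.12, 4.14 and 4.17 in the Trem2wt libraries (difference −1.31, SE 0.10, adjusted p = 2.75e-08). The control mean was 2.83, equal to the TREM2R47H mean of 2.83 at this precision. CG31436 moved the other way, with 5.33, 5.38 and 5.24 in the R47H libraries and 4.66, 4.64 and 4.78 in the Trem2wt libraries (difference 0.62, SE 0.07, adjusted p = 1.37e-05), and its control mean of 4.70 was at the TREM2WT level. CG31300 and CG10553 rose by 0.45 and 0.47, the CG10553 call being lost without Trem2wt replicate 2 (adjusted p = 0.140) and without the RIN covariate (0.11, adjusted p = 0.714). CG5789 and CG11898, both paired with the human ABCC transporters that export conjugated compounds, fell by 0.50 (adjusted p = 6.41e-06) and 0.95.

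A few further DEGs, gathered by their known roles after their values were seen and not from a list, act in meiosis, chromosome segregation or DNA repair. Rec, an MCM-family protein needed for meiotic crossovers and paired with human MCM8, had 3.29, 3.32 and 3.28 in the R47H libraries and 1.64, 1.65 and 1.93 in the Trem2wt libraries (difference 1.56, SE 0.16, adjusted p = 1.62e-06), a 2.95-fold rise. Mus308 (PolQ), the polymerase of microhomology-mediated end joining, had 4.10, 4.04 and 4.09 in the R47H libraries and 3.50, 3.68 and 3.50 in the Trem2wt libraries (difference 0.51, SE 0.06, adjusted p = 3.12e-05). The controls were near TREM2WT in both, at 1.48 for rec and 3.68 for mus308. CG5316, paired with human APTX (aprataxin), which repairs stalled ligation ends, rose by 0.32 (adjusted p = 1.07e-03), and the kinetochore gene Mis12 by 0.60 (SE 0.11, adjusted p = 2.77e-03). CG32088 (sunn), needed for sister chromatid cohesion in meiosis, fell by 1.58 (adjusted p = 0.0152) and lost its call without R47H replicate 1. The part of germline RNA in these differences was not tested. Of 13 DNA replication genes and of 10 ovary and early embryo genes 0 were called, 0 at an unadjusted p below 0.05, with medians of −0.13 and −0.81, and the summed ovary level ran from 6.19 to 8.12 in the R47H libraries, from 6.81 to 7.20 in the Trem2wt libraries and from 6.18 to 6.22 in the control libraries.

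Ribosome and cuticle genes had isolated calls, where 1.77% of all genes were called. Of 87 cytosolic ribosomal protein genes, 76 were lower by sign with a median of −0.09, and only RpL23A fell past the fold limit (difference −0.53, adjusted p = 0.0205, or 0.142 without Trem2wt replicate 2). The list's summed log2 level was 16.4 in each R47H library and 16.5 in each Trem2wt library, and without the RIN covariate 66 of its members were called lower, against 1 with it. The mitochondrial ribosomal protein gene mRpL37 had 4.27, 4.40 and 4.30 in the R47H libraries and 3.73, 3.81 and 3.85 in the Trem2wt libraries (difference 0.53, SE 0.08, adjusted p = 1.69e-04). A second gene of the mitochondrial ribosome, mRpL41, fell by 0.40 and lost its call without R47H replicate 1. Of 82 cuticle protein genes Cpr76Bc alone was called, at 0.86 higher (SE 0.10, adjusted p = 8.21e-06).

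Markers of glia, which make the human proteins, and of neurons and photoreceptors held no DEG. None of 9 glial, 10 neuronal or 12 photoreceptor markers was called, with 3, 1 and 5 at an unadjusted p below 0.05 and medians of 0.00, −0.01 and −0.04. Of all genes 14.4% had such a p, a lower share than among the glial and photoreceptor markers. Repo itself had 6.54, 6.50 and 6.56 in the R47H libraries and 6.73, 6.75 and 6.69 in the Trem2wt libraries, a difference of −0.19 whose adjusted p of 0.0473 passed while its fold did not. The phospholipase C of phototransduction, norpA, did likewise at −0.18 (adjusted p = 0.0472). Of 20 engulfment and scavenger receptor genes 0 were called, 1 at an unadjusted p below 0.05 (median 0.04). The hemocyte receptor NimC1 was at 2.64, 3.02 and 2.77 in the R47H libraries and at 2.89, 2.87 and 2.94 in the Trem2wt libraries, below the control mean of 4.97 in both. Lists for muscle (8 genes), clock (10), unfolded protein response (12), pigment (25), peptide hormones (30), male reproductive genes (39), Osiris genes (20), eggshell (17), yolk (3), dosage compensation (3), thioester proteins (5), JAK/STAT signalling (7), the mitochondrial genome (17) and Jonah and trypsin proteases (28) held 0 DEGs. Over all 24 lists without a DEG, 52 of 354 genes had an unadjusted limma p below 0.05, a share near that of all genes (14.4%). Jonah and trypsin genes had a median of 0.98, with summed levels of 7.17, 7.12 and 8.48 in the R47H libraries and 7.16, 7.13 and 7.26 in the Trem2wt libraries. The control libraries had 7.07, 8.59 and 7.10, so 1 R47H library and 1 control library stood apart.

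The DEGs were unevenly placed. On 3L 2.67% of 2851 tested genes were called and on 3R 2.29% of 3445, against 1.25% of 2949 on 2R, 1.51% of 2245 on X and 0.99% of 2625 on 2L, with 0 of 108 on chromosome 4. In windows of 1 Mb, 15 of 162 windows held 5 or more DEGs and together 102 of the 253. The window from 25 to 26 Mb of 3R held 17 DEGs of 171 genes (9.94%), among them the floor-level group described above, tobi and the 4 ecdysteroid kinase-like DEGs. On 2R from 19 to 20 Mb there were 8 of 98 (8.16%), with Obp56a, Obp56d and Obp56h. Desi, CG42633 and mRpL37 lay side by side on 3R from 10779569 to 10784092, and all rose, by 1.73, 1.67 and 0.53. Drsl4 and Drsl5 lay side by side on 3L (3315620 to 3317144). Beyond the phosphatidate phosphatases on 3L, CR45431 and CG43331 fell by 1.08 and 1.27. Desi, CG42633, CR45431 and CG43331 lost their calls without R47H replicate 1. The labels give 1 strain for each TREM2 form, so the receptor and the rest of the strain's genome cannot be told apart.

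The same 2 TREM2 forms were compared in 3 further settings that share no library with the GMR heads, namely elav heads (neuronal elav-gal4 with Repo-LexA, over a Y chromosome in the labels), elav heads with UAS-Aβ42, and GMR heads with UAS-Tau. All 4 comparisons came from 1 fit to the 35 libraries and share its estimate of the spread and its RIN slope, so their calls are not fully independent. DEGs numbered 269 in elav heads (1.88%), 234 in Aβ42 heads (1.64%) and 295 in tau heads (2.07%). Of the 116 genes higher in GMR heads, 39 were called higher in elav heads (0.868% of all genes were), 42 in Aβ42 heads (0.966%) and 53 in tau heads (1.13%), while 5, 0 and 1 were called lower. Of the 137 lower genes, 36 were called lower in elav heads (1.02% of all genes), 36 in Aβ42 heads (0.672%) and 61 in tau heads (0.938%), and 1, 0 and 0 higher. The median log2 differences of the higher genes were 0.21, 0.26 and 0.35 in these 3 settings, and those of the lower genes −0.18, −0.20 and −0.34. All 4 settings called 26 genes higher and 17 lower, and 107 of the 253 DEGs were called in GMR heads alone, though a missed call does not show that an effect is absent elsewhere.

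The genes that held over all settings included those with the largest differences. CG15510 ranged from 0.16 to 2.41 in the 12 R47H libraries, from −6.65 to −3.01 in the 12 Trem2wt libraries and from −7.12 to −3.99 in the 11 libraries without TREM2. CG33017 ranged from −3.95 to −1.87 with TREM2R47H, from 0.78 to 2.56 with TREM2WT and from −3.97 to −1.85 without TREM2. Rec ranged from 2.72 to 3.51, from 1.36 to 2.04 and from 1.25 to 2.15 in the same order. In all, 26 DEGs (35 of all genes) had no overlap between the 12 R47H and 12 Trem2wt libraries, among them CG42592, CG31093, CG4960, mus308, mRpL37, CG11893, CG11437, CG31436, CG11453, dbr, lectin-30A and the tachykinin receptor TkR99D. Drsl4, Drsl5, Obp56a, Obp56d, Obp56h and CG3397 were called in all 4 settings. Drsl4 differed by 1.26 in elav, 1.16 in Aβ42 and 1.18 in tau heads, close to 1.35 in GMR heads.

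Some DEGs were called in none of the other settings. Mtk differed by 0.97, −0.36 and 0.09 in elav, Aβ42 and tau heads, none called, and the Imd-type peptide list had medians of 1.11, −0.46 and −0.29 there, against 1.19 in GMR heads. Rel differed by 0.14, 0.06 and 0.13. Neither gene passed the test of the difference between settings, with GMR minus elav at 1.03 for Mtk (adjusted p = 0.644) and at 0.21 for Rel (adjusted p = 0.260), so an effect particular to GMR heads was not shown for them. Hsp70Ab differed by −0.25, −0.16 and 0.91. The test of the difference itself between GMR and elav heads passed for 89 genes at an adjusted p below 0.05 (0.623%), 39 of them GMR DEGs, and for 26 genes without Trem2wt replicate 2. Hsp70Ab differed between the 2 settings by 2.53, Atg16 by 0.49, tobi by −1.26, CG16898 by −2.10 and eIF4E-4 by −1.26. Cyp304a1 was higher by 1.76 in GMR heads and lower by 1.63 in elav heads, 1 of 6 GMR DEGs called the opposite way there. The elav and GMR libraries also differ in the sex markers given above, so driver, sex makeup and strain cannot be told apart in this test. Between GMR heads with and without tau, 2 genes differed (0.014%), CG43725 by −4.59 and CG31437 by 1.02, and 796 did at an unadjusted p below 0.05.

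**Figure D5:**
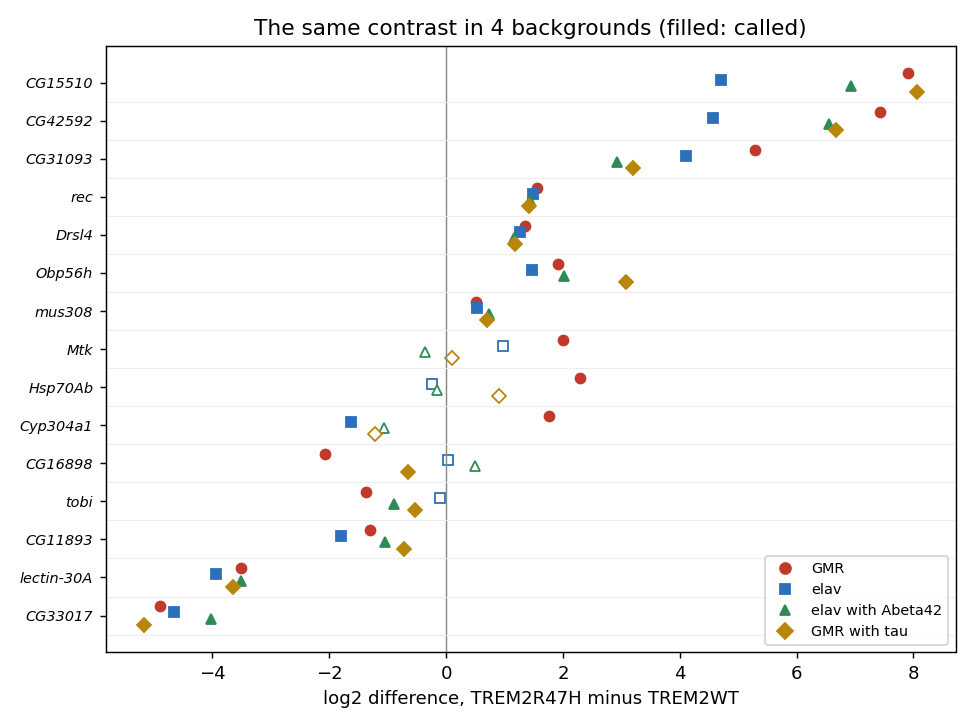
Log2 difference between TREM2R47H and TREM2WT heads for 15 genes in GMR, elav, elav with Aβ42 and GMR with tau heads, with filled markers for DEGs. For rec, Drsl4 and CG11893 the 4 markers lie on 1 side of 0, while Cyp304a1 is at 1.76 in GMR heads and at −1.63 in elav heads.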

How the data were processed

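Per the study's methods, the authors aligned single-end reads of ribosome-depleted RNA to BDGP6 with STAR 2.5.0b, counted them with featureCounts, dropped genes that reached 5 reads in no sample, applied TMM and deposited log2 CPM values. The deposited log2 CPM values had no slope on RIN over the 35 libraries (largest 2.99e-14), so they had been adjusted for RIN across genotypes. The study's methods name limma with RIN as a covariate, and here RIN was fitted again, within genotypes, to values already adjusted. Counts and depths were not used here, so depth and counting error are unknown.

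Limma 3.58.1 in R 4.3.3 fitted 12 genotypes and RIN to all 35 libraries (22 residual degrees of freedom), and the contrast TREM2R47H minus TREM2WT was adjusted by Benjamini-Hochberg over 14279 genes. With 3 against 3 libraries an exact permutation test cannot go below p = 0.1, so none is given. The fit was tested on simulated data. Of 14279 gene IDs, 14019 were found in the Ensembl 115 annotation of BDGP6, 14001 at the same place. No 2 of the 6 libraries were duplicates, since at least 55.5% of genes differed by over 0.1 between any 2.

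Members and the 41 gene lists were chosen with earlier results of these data known. Genes named were DEGs with the largest or most significant changes, DEGs of these lists or of chromosome groups, and leading list members that missed the threshold. The purine genes were chosen after their values were seen. One gene is not reported here. Alternatives changed the RIN term, the libraries fitted, filter, pseudocount, scaling, thresholds, replicate block and each library. Plots used matplotlib 3.10.9.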

Additional observations from a re-analysis of the deposited data

Results flagged for a closer look

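Genes were listed here where the TREM2R47H minus TREM2WT difference itself differed between 2 settings (limma contrast of contrasts, adjusted p below 0.05) and the text or the strongest differences named them. Between GMR and elav heads, the difference of the 2 log2 differences was positive, that is, greater in GMR heads, for CG14339 (4.32), Cyp304a1 (3.39), CG14384 (2.98), Hsp70Ab (2.53), CG15784 (2.09), Ets21C (1.80), CG1942 (1.37), Elo68alpha (1.17), Tsp42Ed (0.99), CG15347 (0.94), CG43064 (0.92), Obp83ef (0.79), CG11089 (0.74), Atg16 (0.49) and fon (0.49).

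It was negative for Cbs (−0.32), CG7135 (−0.39), mino (−0.47), CG31437 (−0.82), CG31205 (−0.88), CG32650 (−1.06), CR43883 (−1.07), CG13704 (−1.20), tobi (−1.26), eIF4E-4 (−1.26), CR45239 (−1.70), CG16898 (−2.10), CR45173 (−2.44), Desi (−2.46), CG12716 (−2.64), CheA29a (−3.03) and CR45484 (−4.69). Tsp42Ed, a tetraspanin paired with human CD63, was called in opposite directions, with a difference of 0.48 in GMR heads and −0.51 in elav heads. Between GMR heads with tau and those without it, the difference was −4.59 for CG43725 and 1.02 for CG31437. Groups of 3 libraries were too small for a search for single outlying samples.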

How the results depend on the processing

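Without the RIN covariate there were 718 DEGs in GMR heads (267 higher, 451 lower, 166 shared with the 253), 149 DEGs among the gene lists against 32 with it, 515 in tau heads and 992 genes that differed between tau and GMR heads. That fit used values already adjusted for RIN across genotypes. In it the yolk protein list had a median of −4.95 and the dosage compensation list 2.37, against 0.26 and −0.001 with the covariate. Of 131 DEGs chosen by the naming rules, 4 changed sign without it, Obp56d (−0.0209), Obp83ef (−0.000408), CG40298 (−0.0435) and fon (−0.0514). Fitting only the 17 GMR libraries left 103 DEGs (94 shared), 17 in the lists, 143 in tau heads and 0 for tau against GMR. Only the 6 compared libraries gave 0 DEGs and 0 in the lists. Fits to the 12 libraries of each difference between settings gave 0 genes for GMR against elav and 0 for tau against GMR.

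The fold limit of 1 on the log2 scale left 85 DEGs and 11 in the lists. The 2 genes of tau against GMR became 1 with a mean log2 of at least 0, and 0 with 1 added before log2, quantile normalization, median centring, the replicate block with RIN, or trend and robust moderation. Leaving out 1 library at a time gave 128 to 279 DEGs, 19 to 35 in the lists, 26 to 120 genes for GMR against elav and 0 to 4 for tau against GMR. The lowest values came without Trem2wt replicate 2.

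Replicate numbers did not pair libraries, since the correlations of same-numbered deviations over 10153 genes were −0.0094, −0.187 and 0.0266. The replicate block with RIN gave 222 DEGs, 204 shared with the 253. Quantile normalization gave 249 and median centring 226 DEGs, and neither turned the direction of a named gene. Differences at low levels are limited by the unknown read depth.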
